A study of Mus musculus with 2 samples.

Results

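Of the 91818 DNase I peaks in the stricter set of replicate 1 of this mouse cortex experiment, 10762 (11.7%) are described here. They lay at promoters rich in the dinucleotide CpG, were shared with replicate 2 and were near 1 coding gene only. They belonged to 7910 of 21938 protein-coding genes. In DNase-seq, nuclei are treated with the nuclease DNase I and the ends it leaves are sequenced, so that a peak marks DNA the enzyme could reach. Right cerebral cortex was taken from male mice aged 2 months of the strain B6CASTF1/J, F1 hybrids between the C57BL/6J and the CAST/EiJ strain, with no treatment named in the labels. There was 1 group of 2 libraries, replicate 1 from the animal numbered 5 and replicate 2 from the animal numbered 6, and a single donor record is given for both. A peak was a member if it belonged to the stricter peak set of replicate 1, shared at least 1 bp with a strict peak of replicate 2 and was centred within 1000 bp of the transcript starts of exactly 1 protein-coding gene. In addition, the 500 bp around its centre had to hold at least 0.6 of the CpGs that its C and G content predicts (the observed/expected ratio) and at least 55% G and C. Members were 62.1% of the 17318 shared peaks near the start of a single coding gene. The other such peaks were 3277 that passed only 1 of both sequence thresholds and 3279 that failed both, called CpG-poor here. The rule set no threshold on height or footprints, but each member had to overlap strict peak calls in both libraries. Heights and their agreement between libraries are therefore not independent of the choice.

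Most CpG dinucleotides of a mammalian genome are methylated and have been depleted over evolution, and CpG islands are the stretches that escaped this, usually unmethylated and often at gene starts. Promoters of this kind serve most genes used in every cell and also many developmental regulators, which Polycomb complexes can hold silent. They tend to lack a TATA box, to start transcription at several nearby positions in both directions and to carry binding sites of factors such as SP1, NRF1, NFY and ETS proteins.

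The sequences below show what such peaks look like, each the part of a peak outside annotated exons, read 5′ to 3′ along the strand of the gene (mm10). Capitals mark a match to 1 of 14 consensus motifs with at least 50% of its bases under a footprint, a short protected stretch called by the authors inside accessible DNA, in both libraries. The first 2 are the tallest members with at least 100 bp of such sequence in a single copy, the next 4 bring in further motifs, and the last is a CpG-poor promoter peak for contrast. Bahcc1, a chromatin protein gene, is shown at chr11:120232681-120232900 on the plus strand, with a CCAAT box (bound by NFY). Rbm39, a splicing factor gene, is shown at chr2:156180239-156180340 on the minus strand, and none of the motifs lay under a footprint there. Jun, the immediate early transcription factor gene, is shown at chr4:95052223-95052420 on the minus strand, with a MEF2 motif. Sgta, a cochaperone gene, is shown at chr10:81060201-81060440 on the minus strand, with an ETS motif, a cyclic AMP response element (CRE) and an NRF1 motif. Rpp38, a ribonuclease P subunit gene, is shown at chr2:3332644-3332820 on the minus strand, with the palindrome known for ZBTB33. Crebl2, which encodes a protein related to the CREB factors, is shown at chr6:134830021-134830153 on the plus strand, with a ZNF143/THAP11-type motif and a GC box. Zfp454, a zinc finger gene, is the contrast at chr11:50887652-50887760 on the minus strand, and was chosen after its values were seen as the tallest CpG-poor peak centred within 100 bp of a start whose shown part is itself below an observed/expected ratio of 0.6.
Bahcc1: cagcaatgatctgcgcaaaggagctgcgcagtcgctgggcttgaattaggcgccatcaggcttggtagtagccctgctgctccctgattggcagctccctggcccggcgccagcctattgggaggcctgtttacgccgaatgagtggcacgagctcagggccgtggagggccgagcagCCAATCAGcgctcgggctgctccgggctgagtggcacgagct
Rbm39: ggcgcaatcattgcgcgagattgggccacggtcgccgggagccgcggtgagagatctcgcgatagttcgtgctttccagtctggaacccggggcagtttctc
Jun: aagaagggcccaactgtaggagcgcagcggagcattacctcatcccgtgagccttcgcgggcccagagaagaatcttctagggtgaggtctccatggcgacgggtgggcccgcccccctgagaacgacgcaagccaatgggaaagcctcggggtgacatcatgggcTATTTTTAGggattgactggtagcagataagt
Sgta: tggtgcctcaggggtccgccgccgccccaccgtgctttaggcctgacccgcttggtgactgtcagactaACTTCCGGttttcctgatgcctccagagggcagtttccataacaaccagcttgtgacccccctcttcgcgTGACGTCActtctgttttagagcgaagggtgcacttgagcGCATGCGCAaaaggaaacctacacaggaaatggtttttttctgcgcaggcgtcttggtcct
Rpp38: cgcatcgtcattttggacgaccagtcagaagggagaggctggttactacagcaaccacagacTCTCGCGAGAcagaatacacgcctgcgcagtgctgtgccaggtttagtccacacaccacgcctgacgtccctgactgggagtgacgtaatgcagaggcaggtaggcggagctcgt
Crebl2: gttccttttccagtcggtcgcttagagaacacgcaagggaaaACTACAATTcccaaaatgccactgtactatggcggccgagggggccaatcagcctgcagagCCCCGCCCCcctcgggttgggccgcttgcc
Zfp454: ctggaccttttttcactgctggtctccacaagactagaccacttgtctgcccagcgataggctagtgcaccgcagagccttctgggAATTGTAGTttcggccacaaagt

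CpGs are spread along the member stretches: 15 in the 220 bp of Bahcc1, 12 in the 102 bp of Rbm39 and 14 in the 240 bp of Sgta. The 109 bp of Zfp454 hold 3. Heights in replicates 1 and 2 were 12.9 and 8.01 at Bahcc1, 13 and 7.40 at Rbm39, 11.2 and 7.29 at Jun and 10.4 and 7.89 at Sgta. Rpp38 reached 9.07 and 5.67, Crebl2 8.90 and 5.11, and the contrast Zfp454 6.55 and 4.84. For scale, the median shared peak stood at 1.25 and 0.937, and the examples were picked among tall peaks, so their heights support no comparison.

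The samples carry limits that touch every value below. Height is the authors' deposited value, whose scaling is not stated, and sequencing depth is likewise not given, so that single peaks have no known precision and heights are set side by side mainly inside a library. Replicate 2 had fewer strict peaks (75245) and fewer footprints (241645 against 394531). The tissue is a mixture of cell types, and fewer cells of a type cannot be told apart from less accessible DNA in each cell. Reads of an F1 hybrid were placed on mm10, the C57BL/6J genome. With 1 group of 2 libraries no test between conditions was possible, and differences between kinds of peaks are descriptions given for each library. Members are not independent of each other: 852 overlap another member, and 979 share their replicate 2 peak with another member.

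Member peaks were tall for this tissue. Their median height was 2.52 in replicate 1 and 1.67 in replicate 2, with quartiles of 1.38 and 4.17 in the first and 0.914 and 2.79 in the second, and the mean of both medians was 2.09 ± 0.605 (SD, n = 2). CpG-poor promoter peaks had medians of 1.16 and 0.860, and peaks that passed 1 sequence threshold lay between both kinds at 1.64 and 1.11. Members were thus 2.17 and 1.94 times as high as CpG-poor promoter peaks at the median, a ratio of 2.05 ± 0.162 (SD, n = 2). The 39265 shared peaks over 1000 bp from any start, called distal here, had medians of 1.06 and 0.837, so that members exceeded them 2.38 and 1.99 times. Shared peaks near the starts of 2 or more coding genes were higher still (3.37 and 2.29), and members reached 0.749 and 0.728 of their median. The order of these 5 kinds of peaks was the same in both libraries.

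**Figure D1:**
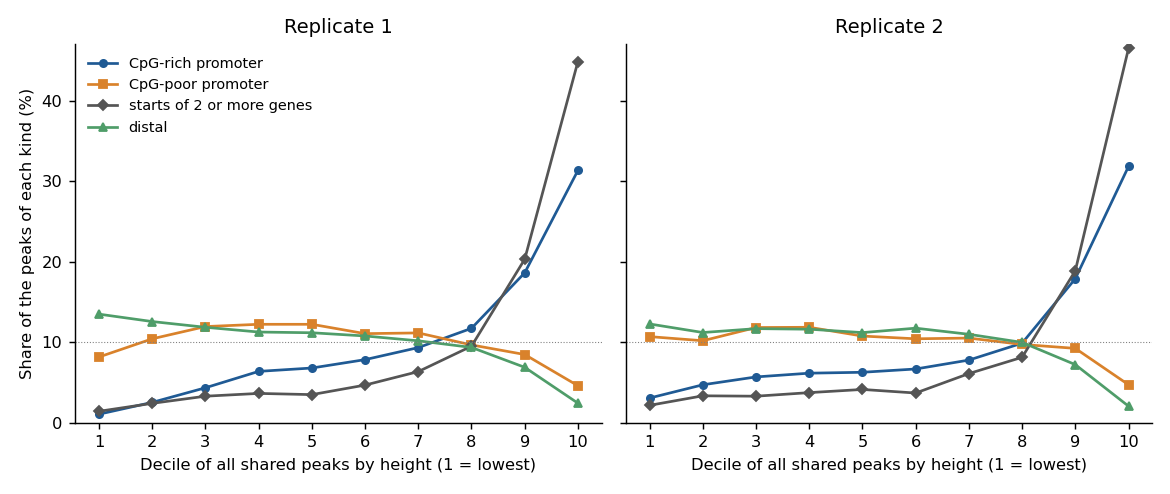
Share of the peaks of each kind (vertical axis, percent) in each decile of all 60789 shared peaks ranked by height (horizontal axis, 1 = lowest), for replicate 1 (left) and replicate 2 (right); the dotted line marks 10%. CpG-rich promoter peaks (circles) rise to 31.3% and 31.8% in the highest decile, below peaks near the starts of 2 or more genes (diamonds) and above CpG-poor promoter peaks (squares) and distal peaks (triangles).

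Ranked among all shared peaks, 31.3% and 31.8% of members fell in the highest decile and 1.07% and 3.08% in the lowest. The highest decile took 4.61% and 4.73% of CpG-poor promoter peaks and 2.44% and 2.07% of distal peaks. A rise in the 2 highest deciles therefore sets members apart from both of those kinds in the plot of height deciles, in each library alone. The lower deciles were not empty of members: the 5% lowest members were at or below 0.770 and 0.522, below the median distal peak.

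Among the 12 tallest members by the mean of both libraries were Rsph1, Rab11b, Dynlt1b, Bahcc1, Rbm39, Ankhd1, Per1, Ip6k1, Jun, Fam76a and Sgta. Rsph1, which encodes a part of the radial spokes of motile cilia, led replicate 2 at 9.31 and stood at 13.6 in replicate 1 (chr17:31277221-31277460, centre at -3 bp from the start). Rab11b, a GTPase of recycling endosomes, reached 14.1 and 8.66, and Dynlt1b, a dynein light chain gene, had the highest value of replicate 1 at 14.6, with 7.35 in replicate 2. The Dynlt1b sequence occurs in 3 copies in the assembly, and 55 members in all have more than 1 copy. Per1, a core repressor of the circadian clock, stood at 11.5 and 7.42, and Ip6k1, an inositol phosphate kinase gene, at 11.7 and 6.96. This group mixes genes used in most cells with regulated ones such as Per1 and Jun. At the other end, Meiob, a meiosis gene, measured 0.313 and 0.284 and Lin9, a subunit gene of the DREAM complex, 0.332 and 0.223. The 3 further lowest members, Gm2897, Gm3739 and Gm3512, lie in a region of repeated genes on chromosome 14 and have 2, 18 and 2 copies.

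Both libraries ranked the members alike. Height in replicate 1 was at the median 1.5 times that in replicate 2, and this ratio was near constant over the range of heights, between 1.47 and 1.51 in all 5 quintiles of member height. The same ratio was 1.47 for peaks near the starts of 2 or more coding genes and 1.46 for those that passed 1 sequence threshold. For CpG-poor promoter peaks it was 1.37 and for distal peaks 1.30. Spearman's rho between libraries is given only as a description over peaks that share both libraries. It was 0.976 over members, 0.893 over CpG-poor promoter peaks and 0.861 over distal peaks. Peaks near the starts of 2 or more coding genes had 0.966 and those that passed 1 threshold 0.957. Close agreement was therefore not particular to members. Relative to the median ratio of all shared peaks (1.38), 227 members (2.11%) were over 1.5-fold higher in replicate 1, against 3.54% of all shared peaks. Only 40 (0.372%) were over 1.5-fold higher in replicate 2, against 9.27% of all shared peaks and 13.1% of distal ones. Since the whole set of members sits above that median ratio, the upward and downward counts are not symmetric for them. Across quintiles of G and C content the median ratio ran only from 1.48 to 1.51.

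**Figure D2:**
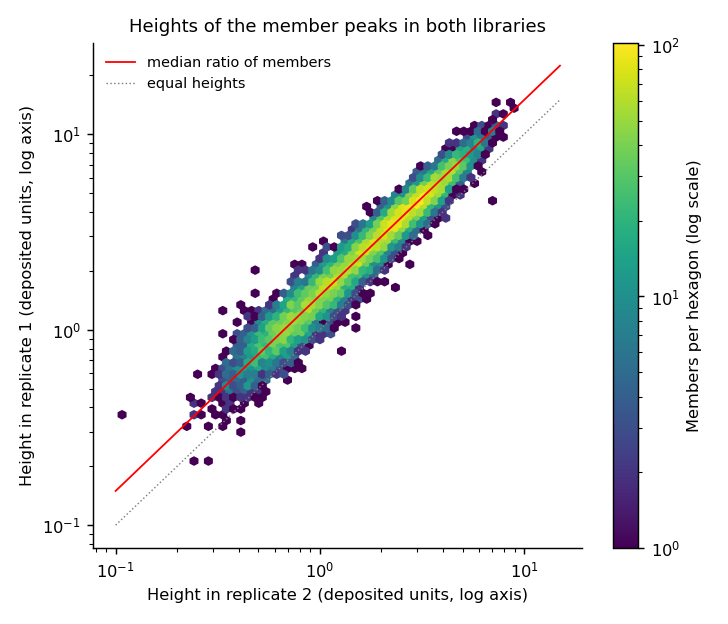
Height of each of the 10762 members in replicate 1 (vertical) against replicate 2 (horizontal), both log axes in the authors' units; color gives the number of members per hexagon, the solid line the median ratio of 1.5 and the dotted line equal heights. Members follow the solid line from the lowest to the highest values, and few lie on or below the line of equal heights.

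The members that departed most from the common ratio were few and mostly low. Slc7a6, an amino acid transporter gene, measured 2.03 in replicate 1 and 0.499 in replicate 2, a ratio of 4.08. Alpl, the gene of tissue-nonspecific alkaline phosphatase, measured 1.23 and 0.330, and Qsox2, a sulfhydryl oxidase gene, 1.30 and 0.407. Each of these 3 peaks held footprints in replicate 1, and the replicate 2 peak it overlapped held none in that library. In the opposite direction Sp1, which encodes the factor that binds GC boxes, had the tallest peak among the 4 lowest ratios. It measured 4.48 in replicate 1 and 6.83 in replicate 2 (chr15:102405461-102405720 in replicate 1, centre at -552 bp), a ratio of 0.655. The replicate 1 peak held 3 footprints and the replicate 2 peak it overlapped held 9, so both counts need not cover the same bases. Sipa1l2, the histone gene Hist1h3f and the laforin gene Epm2a had ratios of 0.630, 0.687 and 0.690. With 1 library per animal, differences between animals and between libraries cannot be told apart.

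Most member peaks were centred upstream of the nearest annotated start, though fewer (41.7%) lay within 100 bp upstream of it. The median centre lay at -22 bp in replicate 1 and at -27 bp in replicate 2 from the nearest annotated start of the gene, and 62.2% of centres were upstream. This sign holds for the nearest start: measured from the gene's 5′-most annotated start, the median was 26 bp. Members centred within 100 bp of the start were 58.3% of all, at median heights of 3.12 and 2.07. Those centred beyond that and up to 300 bp away (23.6%) had 2.22 and 1.48, and those beyond 300 bp (18.0%) had 1.30 and 0.860. Height therefore fell with distance from the start in both libraries.

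Side mattered at every distance. Within 100 bp, members centred upstream had median heights of 3.41 and 2.27, and those centred downstream 2.27 and 1.51. From there to 300 bp the medians were 3.13 and 2.08 upstream against 1.40 and 0.914 downstream. From 300 to 1000 bp they were 1.94 and 1.32 upstream (584 members) against 1.12 and 0.760 downstream (1357 members). The far downstream members were also the ones with fewest footprints: 71.5% and 62.5% of them held one, against 94.2% and 86.5% of the far upstream ones.

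**Figure D3:**
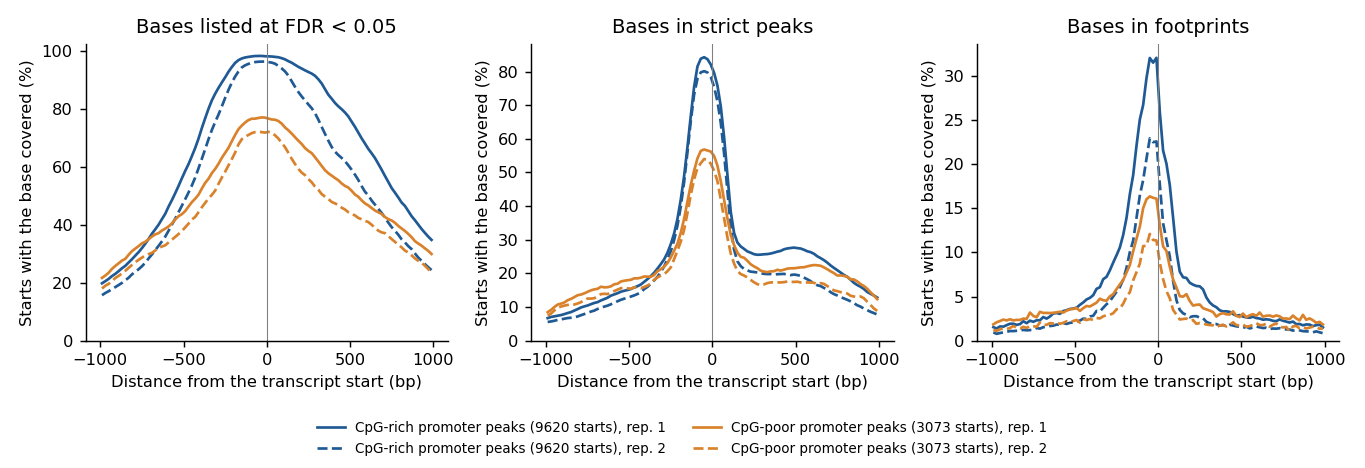
Percent of transcript starts with a base covered (vertical axes) by distance from the start in bp (horizontal, downstream positive, bins of 20 bp), for bases listed with a false discovery rate under 0.05 (left), bases in strict peaks (middle) and bases in footprints (right). Blue lines are the 9620 starts of CpG-rich promoter peaks and orange lines the 3073 of CpG-poor ones, solid for replicate 1 and dashed for replicate 2; blue lies above orange at the start in all 3 panels, and footprints fall faster downstream than upstream.

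The per-base false discovery rates, deposited beside the peaks, leaned downstream. They are not independent of the peak calls: the lowest rate within a member was at most 0.00098 in replicate 1 and 0.00097 in replicate 2. High coverage at member starts and low rates inside members are thus in part fixed by the choice of members. Around the 9620 starts of members, listed bases (a rate under 0.05) covered up to 98.4% of starts in replicate 1 and 96.4% in replicate 2, against 77.1% and 72.2% for the 3073 starts of CpG-poor peaks. Over the 1000 bp downstream, listed bases covered a mean of 72.3% and 60.2% of member starts, and over the 1000 bp upstream 60.1% and 53.6%. The downstream share was thus 1.20 and 1.12 times the upstream one, and 1.10 and 1.07 times for CpG-poor starts. Strict peaks had no common lean: their coverage downstream was 1.08 times that upstream in replicate 1 and 0.906 times in replicate 2. The listed stretch that contains the centre had a median length of 1300 bp in replicate 1 and 1001 bp in replicate 2 at members, 760 and 544 bp at CpG-poor promoter peaks and 440 and 366.5 bp at distal ones. Called peaks were much narrower, with a median of 260 bp for members in both libraries, so the listed stretch reached well past the peak. The lowest rate within a member had a median of 3.37e-23 and 3.85e-16, against 7.34e-10 and 1.48e-07 at CpG-poor promoter peaks.

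Footprints leaned the other way. They covered at most 32.1% of member starts in replicate 1, between -20 and -1 bp, and 22.9% in replicate 2, between -60 and -41 bp. Their mean coverage downstream was 0.623 and 0.531 of that upstream, while listed bases were more frequent downstream. Footprints at the starts of CpG-poor peaks leaned upstream too, at 0.703 and 0.631, so this lean is not particular to members. Some 93.4% and 88.9% of members held a footprint, against 86.1% and 81.6% of CpG-poor promoter peaks and 94.9% and 90.7% of distal peaks. A footprint in both libraries was found in 9369 members (87.1%), close to the 86.4% of all shared peaks. Members were denser in footprints than distal peaks, with 1.61 and 1.32 per 100 bp of peak against 1.35 and 1.10. Peaks near the starts of 2 or more coding genes were denser still (1.68 and 1.42). Members are also taller than distal peaks, and densities were not compared at equal height. The 506 members with no footprint in either library were low, with median heights of 0.882 and 0.591.

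The members with most footprints over both libraries were at Fras1 (19 and 15), Wipi1 (18 and 15), Trib1 (21 and 11), Nfil3 (18 and 14) and Crlf2 (12 and 19). The second count of each is that of the overlapping replicate 2 peak, which need not cover the same bases. In replicate 1, Fras1, an extracellular matrix gene, and Trib1, a pseudokinase gene, have wide peaks of 1320 and 1140 bp. The replicate 1 peak at Crlf2, a cytokine receptor gene, is 440 bp wide. The 3 widest members lie at Efna5 (2020 bp), Cul1 (1760 bp) and Plppr5 (1720 bp). Their heights, between 1.04 and 1.30 in replicate 1 and between 0.645 and 0.852 in replicate 2, are below the median member, and height and width were weakly opposed over all members (Spearman's rho -0.219 and -0.208).

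Several genes had more than 1 member. Of the 7910 genes 5698 had 1, 1738 had 2, 356 had 3, 86 had 4, 22 had 5, 4 had 6 and 6 had 7. In the 2212 genes with 2 or more, the tallest had median heights of 3.01 and 2.00 and a median position of -40 bp, and the second 1.33 and 0.883 at 83 bp, with 60.5% of the second members downstream of the start. Some of these are pieces of 1 region: of 2852 adjacent pairs of a gene, 451 overlap and 137 abut. The 6 genes with 7 members were Ing1, Mxi1, Pcdh7, Rai1, Rev3l and Ubtf. At Ing1, a gene of a chromatin reader, they were spread over separate annotated starts, with heights between 0.995 and 6.80 in replicate 1 and between 0.745 and 5.38 in replicate 2. Pcdh7, a protocadherin gene, instead had 7 low and partly nested peaks between 1.17 and 1.66 in replicate 1 and between 0.868 and 1.29 in replicate 2.

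More CpG did not mean a taller peak throughout. By quintiles of the CpG observed/expected ratio, median heights were 2.00, 2.51, 2.58, 2.87 and 2.73 in replicate 1 and 1.31, 1.66, 1.71, 1.88 and 1.87 in replicate 2, so that they rose up to the fourth quintile and not beyond it. By quintiles of G and C content they declined: the lowest quintile (55% to 60%) had 3.23 and 2.17 and the highest (70.4% to 85.4%) 1.78 and 1.18. The highest ratios belonged to Yy1 (1.27, heights 1.86 and 1.08), the palmitoyltransferase gene Zdhhc5 (1.27, 6.10 and 3.66) and Jade1 (1.26, 1.56 and 1.12), which differ widely in height. Around the thresholds, Gpx3 and Cfap126 were just inside on the ratio (0.870 and 0.722, and 1.11 and 0.645) and Hp1bp3 and Gm19410 just outside (1.35 and 0.875, and 0.970 and 0.599). On G and C, Tcf20 (3.09 and 2.40) and Hsd17b10 (1.61 and 1.16) were just inside and Cdc6 (4.06 and 2.73) and Rbm12b1 (0.613 and 0.499) just outside. The thresholds thus cut through a continuous range of heights.

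Counted by gene, 11906 of the 21938 coding genes (54.3%) had at least 1 start in CpG-rich sequence, and 10317 of these (86.7%) had a shared peak within 1000 bp of it. Of the 10032 coding genes without a CpG-rich start, 22.7% had a shared peak at any start. Among the 1589 CpG-rich genes without a shared peak, 634 had a strict peak in replicate 1 only, 38 in replicate 2 only, 27 in both but not overlapping and 890 in neither. Of those 890, 409 had a peak of the broader set in at least 1 library. At 547 of the 1589 no base within 250 bp of a CpG-rich start was listed in either library. Part of the missing group was therefore detected by 1 library only, mostly the one with more peaks.

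**Figure D4:**
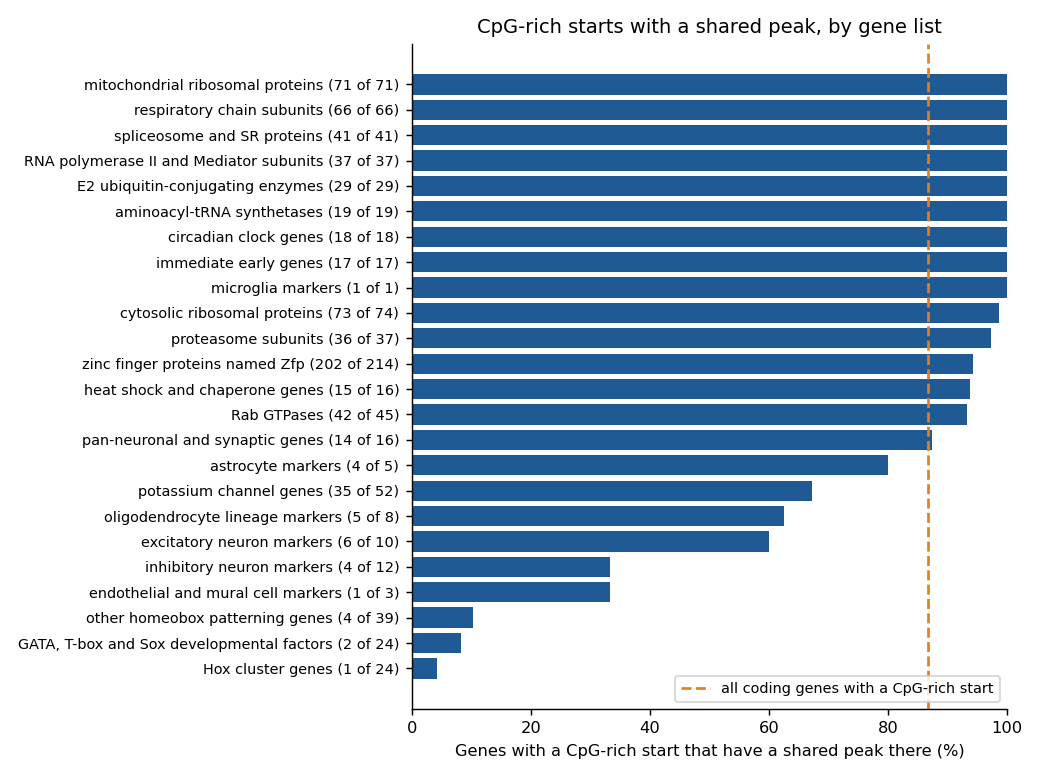
Percent of the genes of each list that have a CpG-rich start and also a shared peak there (bars, horizontal axis, with the numbers of genes in brackets), and the share over all coding genes with a CpG-rich start (dashed line, 86.7%). Lists of genes used in most cells stand at or near 100%, while the 3 lists of developmental factors stand between 4.17% and 10.3%.

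The gene lists spread from all to almost none of their CpG-rich starts, on both sides of the 86.7% of all genes. A shared peak was found at 73 of 74 genes of cytosolic ribosomal proteins, 71 of 71 of mitochondrial ribosomal proteins, 66 of 66 of respiratory chain subunits, 36 of 37 of proteasome subunits, 41 of 41 of spliceosome and SR proteins and 37 of 37 of RNA polymerase II and Mediator subunits. The lists of aminoacyl-tRNA synthetases (19 of 19) and E2 ubiquitin-conjugating enzymes (29 of 29) were complete as well. Rab GTPases had 42 of 45 and zinc finger proteins named Zfp 202 of 214. Among the exceptions, Rpl10l, a testis copy of a ribosomal protein gene, and Psma8, the proteasome subunit of the testis, had no listed base near the start in either library.

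Some genes of these lists have no member, which must lie near 1 gene only and be CpG-rich itself, so heights refer to the rest. The tallest member of a gene had a median of 3.20 and 2.11 over all 7910 genes. Over the 56 genes of cytosolic ribosomal proteins it was 5.01 and 3.26, led by Rplp0 (10.2 and 6.80) and Rpl23 (9.34 and 5.25). The lowest was Rps4x on the X chromosome (1.63 and 1.09). Respiratory chain genes had 4.69 and 3.15 over 33 genes and a narrow upper end, with Atp5g1 at 6.06 and 5.64 and Atp5b at 5.75 and 5.86. These 2 genes of ATP synthase subunits had nearly equal heights in both libraries, while the median ratio of replicate 1 to replicate 2 over members was 1.5. Proteasome genes had 4.02 and 2.79 over 27 genes, with Psmb3 highest at 10.6 and 7.08. Mitochondrial ribosomal genes, at 3.46 and 2.11 over 37 genes, were near the median of all genes.

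Genes that respond to stress, activity or time of day also had tall members. Of 16 heat shock and chaperone genes, all with a CpG-rich start, 15 had a shared peak, and the median over 9 genes with a member was the highest of all lists at 6.37 and 4.54. Hspa5, the chaperone of the endoplasmic reticulum, stood at 9.38 and 6.15 and Hspa8, the constitutive cytosolic one, at 7.77 and 6.04, while the inducible Hspa1b stood at 2.38 and 1.42. The exception was Hspb1, a small heat shock protein gene with no listed base at its CpG-rich starts. All 17 immediate early genes with a CpG-rich start had a shared peak (median 4.16 and 2.58), from Jun at the top and Jund at 7.15 and 4.65 to Nr4a2, the lowest in replicate 2, at 2.06 and 1.23. All 18 circadian clock genes had one too (median 4.57 and 3.39), with Per2 at 8.74 and 5.49 after Per1 and Npas2 lowest in replicate 1 at 1.54, with 1.27 in replicate 2.

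Genes that mark cell types of the cortex were lower and less complete. Pan-neuronal and synaptic genes had shared peaks at 14 of 16 CpG-rich starts, with a median member of 2.51 and 1.62, led by Homer1, a scaffold gene of the postsynaptic density (6.32 and 4.13), and Syn2, a synaptic vesicle gene (4.36 and 2.86). The exceptions were Dlg4, with no listed base at its CpG-rich start, and Rbfox3, with a strict peak in replicate 2 only. Excitatory neuron markers had 6 of 10, and 3 of the 4 others, among them Cux2 and Fezf2, had a strict peak in replicate 1 only. The tallest member among these markers was that of Tle4 (9.91 and 7.03), a gene without a CpG-rich start, centred at -250 bp. Inhibitory neuron markers had 4 of 12, and the members of Pvalb (0.726 and 0.614), Dlx2 (0.732 and 0.461) and Npy (0.563 and 0.461) were below the lower quartile of members in both libraries. Of the 8 others, 1 had a strict peak in replicate 1 and 7 had none but a peak of the broader set in at least 1 library. Promoters of neuronal genes were thus accessible in the labelled tissue, and those of inhibitory neuron markers were low or not shared.

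Glial and vascular markers had shared peaks at some of their CpG-rich starts. Astrocyte markers had 4 of 5, with Sox9 (2.06 and 1.51) and the glutamate transporter gene Slc1a2 (1.60 and 1.25) as the tallest members. Oligodendrocyte lineage markers had 5 of 8, with members at Olig1 (1.53 and 1.03) and Myrf (1.08 and 0.837). The CpG-rich start of Pdgfra had none, and the member of that gene (1.70 and 1.29) was centred 452 bp downstream of its nearest start. Olig2 had a strict peak in replicate 1 only. Endothelial and mural markers had 1 of 3, at the glucose transporter gene Slc2a1 (2.35 and 1.54), and Flt1 and Kdr, receptors of vascular endothelial growth factor, had strict peaks in replicate 1 only. None of 14 liver genes and none of 1093 olfactory receptor genes had a CpG-rich start. A single olfactory receptor gene, Olfr94, had a member (1.20 and 0.553), centred 500 bp downstream of its start.

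Developmental regulators had CpG-rich starts and almost no shared peaks. Hox cluster genes, which pattern the body axis behind the forebrain, had a shared peak at 1 of 24, Hoxa7 (1.95 and 1.27), and at 21 of the other 23 no base near the start was listed in either library. Other homeobox patterning genes had 4 of 39. The tallest members were at Lhx2 (2.43 and 1.58) and Pax6 (1.87 and 1.01), both regulators of forebrain development, and of the 35 without a shared peak 17 had no listed base and 11, among them Emx2 and En2, a strict peak in replicate 1 only. GATA, T-box and Sox developmental factors had 2 of 24, with Sox11 at 3.82 and 3.09, and 13 of the 22 others had no listed base. Potassium channel genes lay between these lists and the housekeeping ones at 35 of 52, with Kcnn2 highest at 6.35 and 4.02, and 10 of their 17 genes without a shared peak, among them Kcna6 and Kcnc1, had a strict peak in replicate 1 only. A shared peak was therefore found at most CpG-rich starts in the majority of lists and at a single gene in the Hox list.

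Members on the X chromosome were lower than those on autosomes. The 264 of them had median heights of 1.5 and 1.02 against 2.57 and 1.71, which is 0.582 and 0.599 of the autosomal median. A male carries a single X, and paired autosomes, but the cause of the lower heights was not tested. A shared peak was found at 251 of 308 CpG-rich genes of X (81.5%) and at 86.8% of those on autosomes.

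Motifs were searched as exact letters on both strands in the central 200 bp of each member, and overlapping matches of a motif were counted once. No consensus contained another. Member windows were chosen for CpG and G and C, which by itself favours letters such as those of GC boxes, so shares are descriptions. The SP/KLF GC box (GGGGCGGGG) was in 1911 members, 17.8%, against 12.9% of all shared promoter peaks, 1.46% of CpG-poor ones and 1.13% of distal peaks. The E-box (CACGTG) was in 888 members (8.25%, against 7.39% of all shared promoter peaks), the CCAAT box (CCAATNAG) in 700 (6.50%, 6.48%), the ETS motif (CCGGAAGT) in 637 (5.92%, 4.90%) and the CRE (TGACGTCA) in 339 (3.15%, 2.60%). NRF1 (TGCGCATGC) was in 282 (2.62%, 2.11%), YY1 (AAGATGGCG) in 246 (2.29%, 1.94%) and the ZBTB33-type palindrome (TCTCGCGAG) in 132 (1.23%, 0.910%). The CTCF core (AGGNGGCAG) was in 345 members (3.21%, 3.68%), fewer than the 5.00% of CpG-poor promoter peaks and 6.65% of distal ones. AP-1 (TGANTCA) ran the same way, in 2.17% of members and 3.97% of all shared promoter peaks, with 10.3% of CpG-poor promoter peaks and 14.3% of distal ones, and MEF2 (CTANNNATA) was similar, with 1.27% of members, 2.22% of all shared promoter peaks, 4.70% of CpG-poor and 6.17% of distal peaks. The TATA box (TATAAAAG) was in 31 members (0.288%, 0.357%), the RFX X-box motif (GTTGCCATG) in 61 (0.567%, 0.848%) and the ZNF143/THAP11-type motif (ACTACAATT) in 37 (0.344%, 0.470%).

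Members with most of these motifs were taller than members without. The ratio of median heights was 1.88 in replicate 1 and 1.95 in replicate 2 for the CCAAT box, 1.68 and 1.76 for NRF1, 1.69 and 1.64 for the CRE, 1.68 and 1.73 for the ZBTB33-type palindrome, 1.52 and 1.52 for ETS and 1.23 and 1.23 for the GC box. It was under 1 for the CTCF core (0.867 and 0.845) and AP-1 (0.884 and 0.950). Since members near the start are taller, the ratio was also taken, as a choice made after seeing the data, over the 6276 members centred within 100 bp of the start. There it was 1.46 and 1.47 for the CCAAT box, 1.35 and 1.42 for NRF1, 1.38 and 1.33 for the CRE and 1.24 and 1.23 for ETS. For the GC box it was 0.988 and 0.985, so that the difference seen over all members was not there among those at the start. By number of different motifs, the 6044 members with none had medians of 1.91 and 1.28, the 3620 with 1 had 3.11 and 2.07, the 949 with 2 had 3.79 and 2.48 and the 149 with 3 or more had 3.96 and 2.63. These medians were taken over all members and not among those near the start, so position is not separated from motif number in them.

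**Figure D5:**
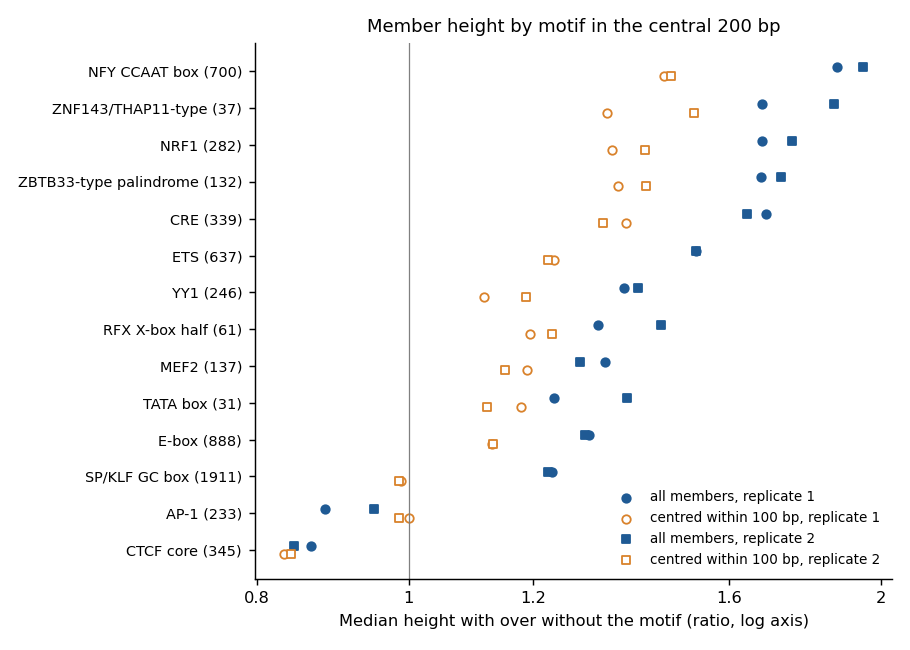
Ratio of the median height of members with a motif to that of members without it (horizontal, log axis, line at 1), for each of 14 motifs with the number of members that hold it in brackets; circles are replicate 1 and squares replicate 2. Filled points are all members and open points the members centred within 100 bp of the start, where most ratios lie closer to 1 and that of the GC box falls to 0.988 and 0.985.

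Matches differed widely in how often a footprint covered them. Footprints in a library covered 27.6% and 18.6% of all bases of the member windows. Of 351 CRE matches 94.3% and 89.7% lay under a footprint by at least 50% of their bases, of 295 NRF1 matches 85.8% and 80.3%, of 2256 GC box matches 81.1% and 61.4% and of 138 ZBTB33-type matches 70.3% and 52.2%. ETS (52.1% and 38.0%) and YY1 (45.1% and 31.6%) were lower, and the CCAAT box, whose members had the largest height ratio, was close to the share of all bases at 32.1% and 18.7%. AP-1 matches were under one in 7.98% and 5.04% of cases, below the share of all bases. The median position of matches relative to the start was -60 bp for the CCAAT box, -48.5 bp for the GC box, -34 bp for the CRE, -31.5 bp for NRF1 and -9 bp for ETS. It was -26 bp for the TATA box and, as the only one of the 14 downstream, 24.5 bp for YY1. The shown Sgta sequence has its ETS, CRE and NRF1 matches within -259 to -20 bp, and all 3 lie under footprints in both libraries.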

How the data were processed

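The data were 2 DNase-seq libraries of 1 group, and for each library 2 peak sets, false discovery rates per base and footprints were used. Peak height is a signal deposited by the authors, whose scaling is not stated. The authors deposited the false discovery rates as q-values for bases under 0.05, and the footprints carry the constant 0.01 and no score. Per the descriptions deposited with the samples, all files of a library came from its own mm10 alignments. For the aligner, the callers, their versions and the depth, nothing is stated (not given in the sources used here).

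Members were found by the rule in the report, with GENCODE M21 starts and GRCm38.p6 sequence, in Python 3.11.15 with numpy 2.4.6, pandas 2.3.3, scipy 1.17.1 and numba 0.67.0. A replicate 1 peak took the height of the tallest replicate 2 peak it overlapped. Replicate 2 footprints of a member were counted in that replicate 2 peak. Coordinates and widths given for single members are those of replicate 1. Copy number is the median over 3 words of 31 bases of their counts in the assembly. The members, the 26 gene lists and the 14 motifs were chosen with earlier results of these data known. Genes named are the 12 tallest and 5 lowest members, those with the 4 highest and 4 lowest ratios, the most footprints, widths, CpG ratios or members, those beside each threshold, and in each list the 2 tallest, the lowest and up to 3 without a shared peak, apart from some that are not reported here. The check on simulated data recovered 500 of 500 planted overlaps, 100 of 100 CpG-rich windows and 1400 of 1400 motifs. Alternatives changed the overlap, peak set, base replicate, windows, thresholds, start, motif window and library. No p-value was computed, since there was 1 group.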

Additional observations from a re-analysis of the deposited data

How the results depend on the processing

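Of 40 alternatives to the 7 main results that kept both libraries, 35 stayed within the spread of the main value, taken as the SD between libraries, a factor of 1.5 for the number of members and the SD over members for their height ratio. For median height this SD was wide (0.605), as heights differed 1.5-fold between libraries at the median. Alternatives from 1.701 to 2.655 thus all counted as within it, which is a weak check. The alternatives outside the spread follow. The height of members over CpG-poor promoter peaks (2.05) was 2.33 with the broader peak sets and 1.75 with 1000 bp sequence windows. Holding a footprint rose from 91.2% to 98.2% with only the tallest member of each gene, a choice made after seeing the data. The median position turned from -24.5 bp to 26 bp with the gene's 5′-most start. The share of CpG-rich genes with a shared peak (86.7%) was 92.3% with the broader sets, and 87.2% to 92.2% in single libraries. The cause of these shifts was not tested. The number of members stayed within its factor of 1.5, from 7793 to 12662 with both libraries kept. Peaks of replicate 2 alone and of replicate 1 alone, with no sharing asked for, gave 11391 and 13501. For height, the values for a single library (1.67 and 2.52) are the medians given above, over the same members chosen with both libraries. They are therefore no check on leaving a library out.

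Of 28 alternatives to the motif ratios that kept both libraries, 9 stayed within the SD between libraries and 18 moved by more on the same side of 1. The GC box turned from 1.23 to 0.987 over members centred within 100 bp of the start, a choice made after seeing the data. No paired analysis was possible because there was 1 group of 2 libraries and so no pair of groups to block. Unknown depth limits how firmly a low or missing peak can be read.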
